A study of Mus musculus with 6 samples.

Results

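DNA repair genes were followed by pathway in splenic B cells of mice with and without the histone acetyltransferase gene Crebbp. The set holds 47 genes chosen by symbol and sorted by pathway, of which 46 were measured, out of 18193 genes on the array. Each was read from its brightest probe set that the array annotation ties to 1 gene. Dclre1c, which encodes the Artemis nuclease, was not analysed here. All mice carried a Bcl2 transgene driven by the Eµ immunoglobulin enhancer, so both groups over-express an anti-apoptotic protein. The Crebbp-floxed group (labelled CBPF/F x EµBcl2, n = 3 mice) has the gene flanked by recombination sites, and the Crebbp-deleted group (CBPΔ/Δ x EµBcl2, n = 3 mice) has lost it. The recombinase and the ages of the mice are not given in the sources used here. Spleen cells had been frozen and thawed, and B cells were left behind by beads against CD43, a protein that T cells, macrophages and plasma cells carry and resting B cells lack.

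Cells mend DNA by routes that differ in the damage they read. ATM and ATR are the kinases that sense breaks and stalled replication forks and halt the cell cycle, homologous recombination copies a sister chromatid with the Fanconi proteins clearing crosslinks, and end joining ligates broken ends directly. Mismatch repair corrects replication errors, base excision repair removes single damaged bases, and nucleotide excision repair cuts out bulky lesions. B cells use several of these routes on their own antibody genes: end joining completes V(D)J recombination and class switching, and the uracil glycosylase UNG and the mismatch proteins process the uracils that activation-induced deaminase makes. In mixed-cell samples such as these, fewer cells of a type and less RNA per cell cannot be told apart.

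No repair gene passed the test between the groups. limma called 0 of the 46 members at a Benjamini-Hochberg adjusted p under 0.05 over all genes, where 142 of 18193 genes (0.781%) were called, and 6 members had an unadjusted p under 0.05. Of those, 5 had lower means in the deleted samples (10.9% of members, against 6.84% of all genes) and 1 had a higher mean (2.17%, against 7.96% of all genes). Nearly all members are bright probe sets, and among the 10589 genes above the median level the same shares were 10.2% and 10.3%, so the share of lower members is near the background of genes of their brightness. The deleted samples lay wholly below the floxed ones in 8 members (17.4%), against 10.0% of all genes and 13.8% of the bright ones, and wholly above in 1 (2.17%), against 11.2% and 13.6%.

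The differences were small. All differences are on the log2 intensity scale, Crebbp-deleted minus Crebbp-floxed, and ran from -0.59 for Ung to 0.38 for Neil1. Their median was -0.07, against 0.01 over all genes, and 31 of the 46 were negative (67.4%), against 46.6% of all genes. The median absolute difference was 0.11 in the members and 0.12 over all genes. For 43 of the 46 members the 95% interval of the difference lay within 1 log2 unit of zero, so that a 2-fold change in mean lies outside it. For 29 of the 46 it lay within 0.5. Over all genes, 93.6% had an interval within 1 log2 unit of zero and 68.2% within 0.5. Taking the median deviation of the 46 genes from the floxed mean in each sample, floxed samples 1, 2 and 3 stood at -0.03, -0.02 and 0.03, and deleted samples 1, 2 and 3 at -0.07, -0.18 and 0.03. Deleted sample 2 was the lowest of the 6 for 21 of the 46 genes, while deleted sample 3 lay inside the floxed range. The share over all genes was not computed, and the array median of deleted sample 2 (4.27) was also the lowest of the 6. The median difference was -0.02 without deleted sample 2, -0.04 without floxed sample 3 and -0.12 without either floxed sample 1 or deleted sample 3.

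**Figure D1:**
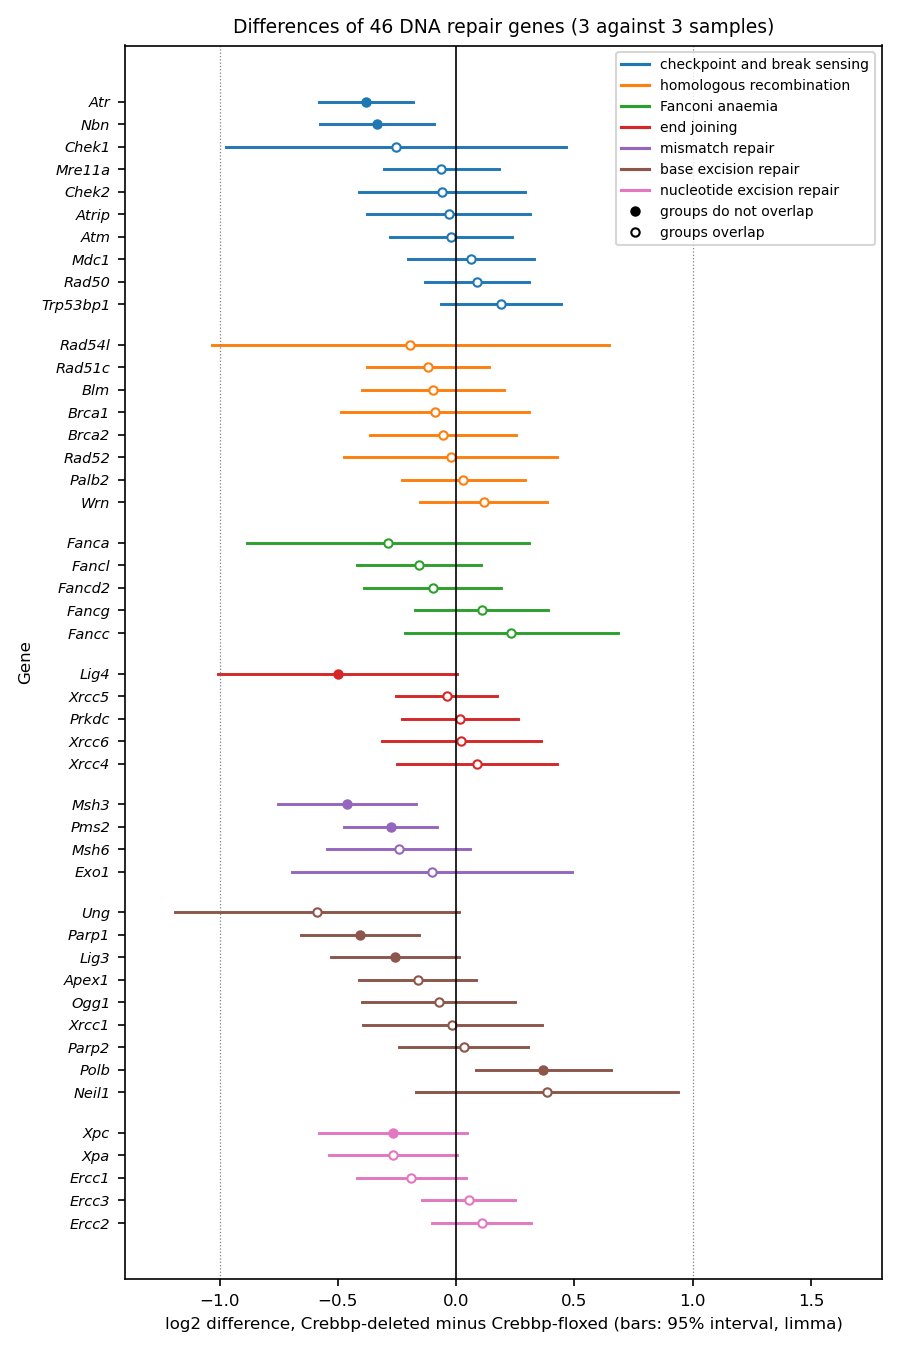
Log2 difference between Crebbp-deleted and Crebbp-floxed samples (x axis) for each of the 46 repair genes (y axis), coloured by pathway, with 95% intervals from limma over 3 against 3 samples. Filled points mark the 9 genes whose groups do not overlap; 8 of these lie below zero and 1, Polb, above.

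In the check of the labels, all 4 Crebbp probe sets had every deleted sample below every floxed sample, at 51.0% to 70.6% of the floxed level. Over all 45037 probe sets, the limma adjusted p was 0.033 for the second brightest of them. It was 0.081 to 0.104 for the rest, the brightest included, which do not pass 0.05. Array medians were near-equal (4.27 to 4.30 log2 units), and the mean level of 7 B cell markers was 10.70 to 10.84 in floxed and 10.40 to 10.56 in deleted samples. Of these the antigen receptor subunit gene Cd79a passed the test, at -1.11 (limma adjusted p = 0.0093). Markers of plasma cells and of macrophages had higher means in the deleted samples, the latter with overlapping ranges, while T cell, NK cell, neutrophil and dendritic cell lists overlapped and held 0 genes at an unadjusted p under 0.05. The mean level of 7 erythroid markers was 4.75 in deleted sample 3 and 3.56 to 3.86 in the other samples. Of these, Ermap alone had an unadjusted p under 0.05 (limma), with the deleted samples wholly higher. The mean level of 10 plasma cell markers was 7.26 to 7.37 in floxed and 8.15 to 9.21 in deleted samples, with 1 of 10 past the test. That of 12 macrophage and monocyte markers was 5.27 to 6.71 and 6.62 to 7.83, with 0 of 12 past the test and 8 at an unadjusted p under 0.05 (limma). The part of plasma cells, macrophages and erythroid cells in the repair results was not tested. The mice were also unevenly sexed: floxed sample 1 and deleted samples 1 and 3 had Y-linked signal, and floxed samples 2 and 3 and deleted sample 2 had high Xist.

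Atr, Parp1, Msh3 and Pms2 were the members with the smallest p-values among those with lower means. Promoter windows are shown for every member with an unadjusted p under 0.05 for which a RefSeq window was matched. Nbn and Polb also had such a p but no matched window. Each window runs from 250 bases before to 50 bases after the RefSeq start (GRCm38.p6), printed 5′ to 3′ on the gene's strand. Capitals mark words found on either strand: the short cAMP response element TGACG, which CREB-family factors bind, the E2F words TTTCCCGC, TTTCGCGC, TTTGCCGC and TTTGGCGC of S phase genes, the CCAAT box, and the GC box GGGCGG. Words may overlap, and the full element TGACGTCA holds the short one on both strands. The windows lie at chr9:95857347-95857646 (plus strand, Atr), chr1:180568641-180568940 (plus, Parp1), chr13:92354954-92355253 (minus, Msh3) and chr5:143909751-143910050 (plus, Pms2).
Atr: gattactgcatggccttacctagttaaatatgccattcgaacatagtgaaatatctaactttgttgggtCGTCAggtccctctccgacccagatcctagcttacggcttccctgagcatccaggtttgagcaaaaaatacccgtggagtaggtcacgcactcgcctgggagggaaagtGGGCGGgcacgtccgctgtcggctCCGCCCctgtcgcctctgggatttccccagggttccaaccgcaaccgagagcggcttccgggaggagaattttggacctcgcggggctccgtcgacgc
Parp1: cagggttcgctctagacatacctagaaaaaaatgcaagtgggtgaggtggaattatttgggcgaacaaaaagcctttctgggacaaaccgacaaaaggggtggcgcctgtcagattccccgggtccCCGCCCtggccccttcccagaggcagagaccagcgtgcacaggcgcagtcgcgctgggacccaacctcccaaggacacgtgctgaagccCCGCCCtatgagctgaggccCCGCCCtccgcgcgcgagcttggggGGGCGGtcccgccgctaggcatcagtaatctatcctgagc
Msh3: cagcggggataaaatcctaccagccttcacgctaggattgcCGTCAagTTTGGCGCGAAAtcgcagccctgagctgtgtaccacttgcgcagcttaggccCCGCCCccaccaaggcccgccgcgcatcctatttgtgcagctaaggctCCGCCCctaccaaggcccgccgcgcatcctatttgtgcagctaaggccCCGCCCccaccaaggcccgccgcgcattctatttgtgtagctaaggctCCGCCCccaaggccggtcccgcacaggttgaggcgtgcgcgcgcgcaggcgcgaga
Pms2: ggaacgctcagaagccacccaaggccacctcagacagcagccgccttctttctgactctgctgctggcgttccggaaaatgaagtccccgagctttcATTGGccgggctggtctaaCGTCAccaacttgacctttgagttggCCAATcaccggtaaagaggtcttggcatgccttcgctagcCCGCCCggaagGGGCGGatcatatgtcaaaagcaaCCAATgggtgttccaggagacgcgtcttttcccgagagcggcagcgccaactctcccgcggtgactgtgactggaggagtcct

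The Atr window held 1 short cAMP response element and 2 GC boxes, and the Parp1 window held 4 GC boxes and no other word searched. The Msh3 window held 2 overlapping E2F words, 1 on each strand, with 1 short element just before them and 4 GC boxes. The Pms2 window held 3 CCAAT boxes, 2 GC boxes and 1 short element. RefSeq windows were matched for 37 of the 46 members, 40 windows in all, and 18106 windows of the same length were matched for all array genes. An E2F word was in 9 of 40 (22.5%), in Brca2, Chek2, Fancg, Mdc1, Msh3, Msh6, Rad51c and Xrcc6, against 3.21% of all windows. The short element was in 52.5% against 26.5%, the CCAAT box in 52.5% against 37.4%, the GC box in 70.0% against 52.3%, and the full cAMP response element TGACGTCA in 2 windows, those of Brca2 and Rad51c, against 2.49%. The median GC content was 60% in member windows and 58.3% in all. A match is a run of letters and says nothing of binding. Of the 8 members with an E2F word, Msh3 had an unadjusted p under 0.05 and the other 7 did not. The share with such a p was 13.0% of the 46 members and 14.8% of all genes. A link between these words and the differences was not tested.

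The damage sensors and checkpoint kinases were represented by 10 genes, with 7 negative differences and a median of -0.05. That median was -0.01 without deleted sample 2, -0.10 without deleted sample 3 and -0.07 without floxed sample 2. Atr encodes the kinase that answers replication stress. Its log2 intensities were 7.28, 7.28 and 7.36 in floxed samples 1 to 3 and 6.88, 6.91 and 6.99 in deleted samples 1 to 3. The groups were clearly apart and tight, with SDs of 0.04 and 0.05 (n = 3 each). The deleted mean was 76.8% of the floxed one, a difference of -0.38 ± 0.08 (SE; 95% interval -0.58 to -0.18; limma adjusted p = 0.099), the smallest p of all 46 members. The 2 other Atr probe sets had differences of -0.61 and -0.32, and the first of them also had no overlap. Atrip, the partner that carries ATR to coated single strands, had a difference of -0.03, and Chek1, the kinase ATR switches on, one of -0.25 with an interval from -0.97 to 0.47.

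Nbn encodes the NBS1 subunit through which the MRE11 complex recruits ATM. Its values were 7.02, 6.76 and 7.02 in floxed and 6.65, 6.57 and 6.59 in deleted samples. Floxed sample 2 stood nearest to the deleted group, and the groups did not overlap. The deleted mean was 79.4% of the floxed one, a difference of -0.33 ± 0.10 (SE; interval -0.57 to -0.09; limma adjusted p = 0.197). Among the other subunits of the complex, Rad50, its ATPase, had a difference of 0.09 and Mre11a, its nuclease, one of -0.06, both with intervals reaching to either side of zero. Atm itself had -0.02 (interval -0.28 to 0.24), and its effector kinase Chek2 had -0.06. Among the chromatin adaptors at breaks, Mdc1 had 0.06 and Trp53bp1, which favours end joining, had 0.19. The 6 probe sets of Trp53bp1 were divided, 3 higher and 3 lower. In the 2 lowest, at -0.34 and -0.29, the deleted samples lay wholly below, and in 1 of the higher, at 0.18, wholly above.

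**Figure D2:**
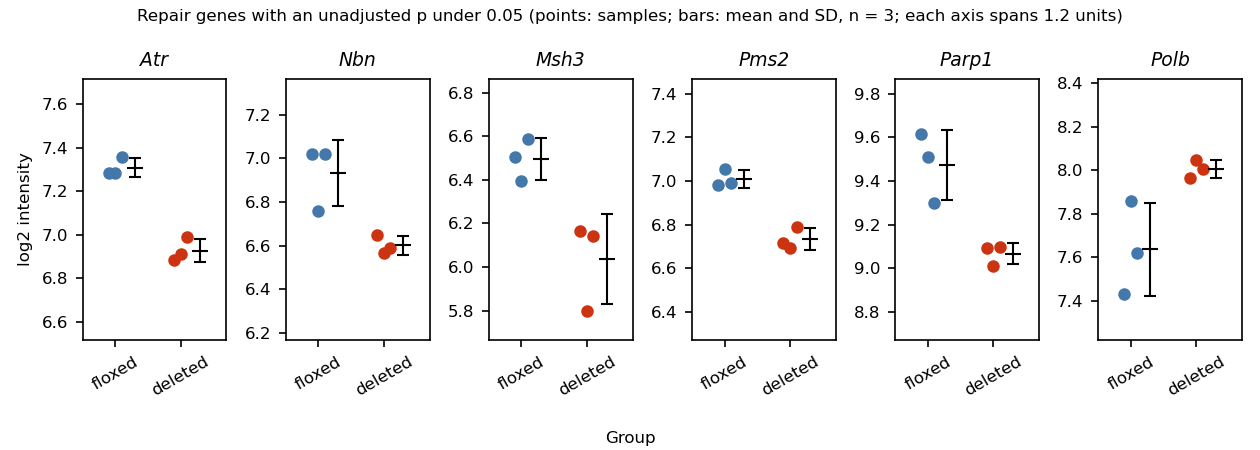
Log2 intensity (y axis) in each floxed (blue) and deleted (red) sample of the 6 repair genes with an unadjusted limma p under 0.05, with mean and SD over 3 samples beside the points. In Atr, Nbn, Msh3, Pms2 and Parp1 all deleted samples lie below all floxed samples, and in Polb all lie above.

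Homologous recombination and the Fanconi pathway showed no member with an unadjusted p under 0.05, against 14.8% of all genes. None had groups apart, against 10.0% of all genes wholly lower and 11.2% wholly higher. The 13 genes had a median difference of -0.09. Among their dimmer probe sets the groups were apart in several. Those of Fanca (-0.29), Fancd2 (-0.35) and Rad54l (-0.22) were lower, and those of Brca1 (0.28) and Fancd2 (0.28) higher. All of these except that of Fanca lay below the median level of all probe sets. The share apart among dimmer probe sets of all genes was not computed. The recombination mediators Brca1, Brca2 and Palb2 had differences of -0.09, -0.06 and 0.03. Rad51c had the smallest p of the 8 recombination genes. It read 5.59, 5.84 and 5.76 in floxed and 5.74, 5.49 and 5.60 in deleted samples, which overlap, a difference of -0.12 ± 0.11 (SE; interval -0.38 to 0.14; limma adjusted p = 0.68). Rad52 had -0.02, the helicases Blm and Wrn -0.10 and 0.12, and the motor protein gene Rad54l -0.19. The interval of Rad54l, from -1.03 to 0.65, was the widest of the pathway. Its floxed samples spread from 4.30 to 5.61 and its deleted samples from 4.12 to 5.03.

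Of the Fanconi genes, Fancl encodes the ubiquitin ligase of the core complex and had the smallest p. Its values were 6.79, 6.56 and 6.88 in floxed and 6.60, 6.67 and 6.49 in deleted samples, again overlapping, a difference of -0.16 ± 0.11 (SE; interval -0.42 to 0.11; limma adjusted p = 0.573). The core complex genes Fanca, Fancc and Fancg had differences of -0.29, 0.23 and 0.11, and Fancd2, the protein that FANCL modifies, had -0.10. With all probe sets of a gene averaged, the median of the 5 Fanconi genes was -0.0046 in place of -0.10.

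Several recombination and replication-linked members were highest in floxed sample 3, and so were cell cycle genes. That sample had the highest value in 5 of the 8 recombination genes and 3 of the 4 mismatch genes, and the share over all genes was not computed. Chek1 read 5.20 there against 3.90 to 4.65 in the other 5 samples, Rad54l 5.61 against 4.12 to 5.03, and Brca2 5.93 against 5.51 to 5.74. The mean level of 15 genes of G2 and M phase was 6.49 in floxed sample 3, 4.93 and 4.69 in floxed samples 1 and 2, and 5.15 to 5.90 in the deleted samples. For 16 S phase genes it was 7.30 in floxed sample 3 and 6.58 to 6.91 in the others, with a median difference between groups of -0.15 and 1 member, the replication licensing factor gene Cdt1, past the test (limma adjusted p = 0.028). Floxed sample 3 also had the highest mean level of T cell (6.06), NK cell (4.80) and dendritic cell (6.22) markers. The neutrophil, erythroid, plasma cell and macrophage lists were highest in deleted sample 3, and B cell markers in floxed sample 2. The part of cycling or other cells in the repair values was not tested.

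**Figure D3:**
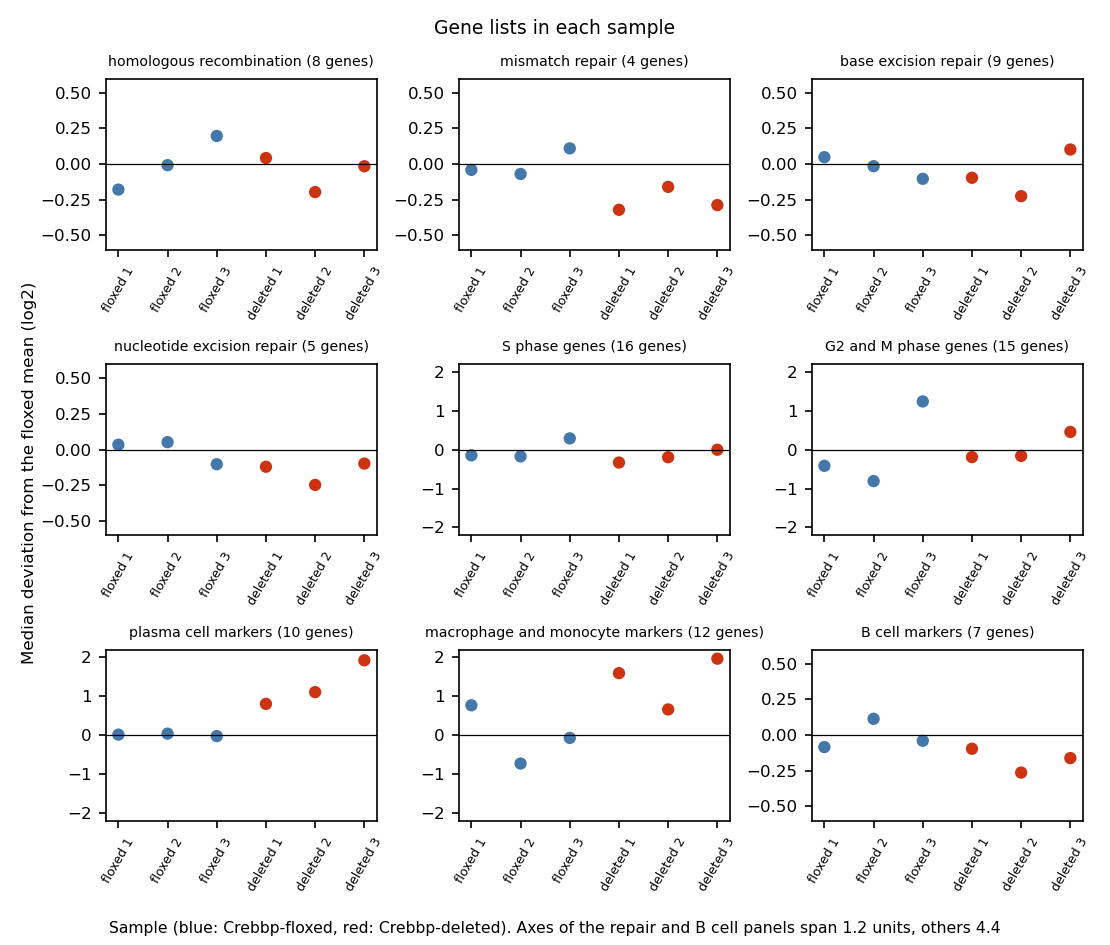
Median deviation of each gene list from its floxed mean (y axis, log2) in each of the 6 samples (x axis), floxed in blue and deleted in red, with 1 panel a list. The mismatch repair medians of the deleted samples (-0.32, -0.16 and -0.29) all lie below those of the floxed samples (-0.04, -0.07 and 0.11), whereas G2 and M phase genes peak in floxed sample 3.

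End joining had a median difference of 0.02 over 5 genes, and 4 of them lay within 0.09 of zero. Xrcc5 and Xrcc6 encode the Ku proteins that cap broken ends, and Prkdc the kinase they recruit. Their differences were -0.04, 0.02 and 0.02, with 95% intervals that reached at most 0.36 log2 units from zero. Xrcc4, the scaffold of the ligation step, had 0.09. Its partner Lig4, the ligase that seals the ends, read 4.57, 5.31 and 4.49 in floxed and 4.24, 4.18 and 4.45 in deleted samples. The groups did not overlap, but floxed sample 3 lay only just above deleted sample 3, and floxed sample 2 carried most of the gap. The difference was -0.50 ± 0.22 (SE; interval -1.01 to 0.00; limma adjusted p = 0.340). Leaving out floxed sample 2 brought it to -0.24. With 16 added to each intensity it was -0.31.

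Mismatch repair genes were lower in mean throughout. The 4 members had a median difference of -0.26, from -0.46 to -0.10, and the median deviations of the deleted samples did not overlap with those of the floxed ones. Msh3 encodes a protein that reads insertion and deletion loops. It read 6.50, 6.40 and 6.59 in floxed and 6.17, 5.80 and 6.14 in deleted samples. All deleted samples were below the floxed ones, deleted sample 2 the furthest. The deleted mean was 72.7% of the floxed one, a difference of -0.46 ± 0.12 (SE; interval -0.75 to -0.17; limma adjusted p = 0.155). Of its 4 probe sets 3 were lower and the dimmest stood at 0.03, and with all 4 averaged the difference was -0.29.

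Pms2, an endonuclease of the pathway, read 6.98, 7.06 and 6.99 in floxed and 6.72, 6.69 and 6.79 in deleted samples. Both groups were tight and apart. The difference was -0.28 ± 0.08 (SE; interval -0.47 to -0.08; limma adjusted p = 0.188), at 82.6% of the floxed mean, and its other probe sets stood at -0.26 and -0.71, with -0.42 as the average of all 3. Msh6, which reads base mismatches, had -0.24 (interval -0.55 to 0.06), with deleted sample 2 at 8.07 inside the floxed range of 8.0 to 8.20. Exo1, the excising nuclease, had -0.10 and lies below the median level of all probe sets, the only member to do so.

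The widest differences in both directions were in base excision repair. Parp1 encodes the sensor of strand nicks that makes poly(ADP-ribose). It read 9.62, 9.51 and 9.30 in floxed and 9.09, 9.01 and 9.10 in deleted samples. All deleted samples were below, with floxed sample 3 the nearest. The deleted mean was 75.4% of the floxed one, a difference of -0.41 ± 0.11 (SE; interval -0.66 to -0.16; limma adjusted p = 0.145). The next 2 probe sets of Parp1, both bright, had differences of -0.32 and -0.40 with no overlap, while the dimmest had -0.02. Its paralog Parp2 had 0.03.

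Polb, the polymerase that fills the gap left by base removal, was the only member whose deleted samples lay wholly above the floxed ones. It read 7.43, 7.86 and 7.62 in floxed and 7.96, 8.05 and 8.0 in deleted samples. The deleted samples were tight and all above, with floxed sample 2 the nearest. The deleted mean was 129% of the floxed one, a difference of 0.37 ± 0.12 (SE; interval 0.08 to 0.65; limma adjusted p = 0.222). Its second probe set gave 0.32, and its 2 dimmer ones 0.01 and -0.34, so the gene's probe sets disagree. With all 4 averaged the difference was 0.09.

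**Figure D4:**
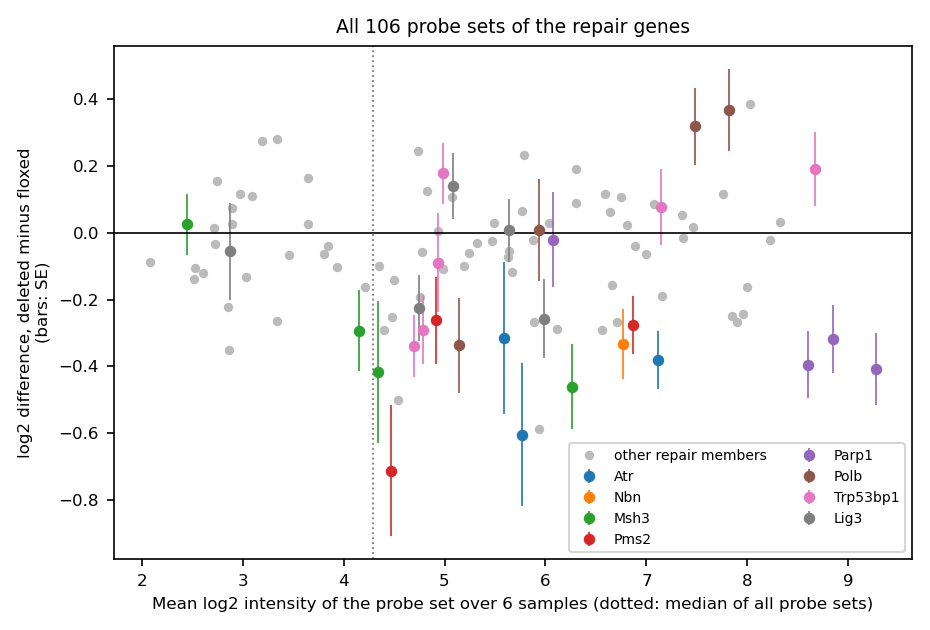
Log2 difference (y axis, with SE for the named genes) against mean log2 intensity (x axis) for all 106 probe sets of the 46 repair genes. The 3 brightest Parp1 probe sets and all Atr and Pms2 probe sets lie below zero, while those of Polb and Trp53bp1 lie on both sides.

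Lig3, the ligase that works with XRCC1, read 6.25, 6.10 and 6.01 in floxed and 5.94, 5.97 and 5.68 in deleted samples. The groups were apart by a narrow gap between floxed sample 3 and deleted sample 2. The difference was -0.26 ± 0.12 (SE; interval -0.53 to 0.01; limma adjusted p = 0.361), and its 5 probe sets were divided, 3 lower and 2 higher. With all 5 averaged the difference was -0.08, and without deleted sample 3 it was -0.17. Xrcc1 itself had -0.02 (interval -0.40 to 0.36).

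Glycosylases start the route, and the genes of 2 of them varied widely between floxed samples. Ung, which removes uracil, read 6.18, 5.72 and 6.77 in floxed and 5.87, 5.38 and 5.66 in deleted samples, a difference of -0.59 with an interval from -1.19 to 0.01 (limma adjusted p = 0.346). The groups overlap, since deleted sample 1 was above floxed sample 2. Neil1, which removes oxidised pyrimidines, read 7.63, 7.43 and 8.42 in floxed and 8.17, 8.26 and 8.21 in deleted samples, a difference of 0.38 (interval -0.17 to 0.94; limma adjusted p = 0.507). Floxed sample 3 was the highest of the 6, above all deleted samples, and without it the difference was 0.68 (limma adjusted p = 0.048). Without floxed sample 2 it was 0.19. Both Ung and Neil1 peak within the floxed group in sample 3, in which 6 germinal centre genes also had their highest mean level, 6.98 against 5.36 and 5.10 in floxed samples 1 and 2 and 6.18 to 6.51 in deleted samples. The cell cycle, T cell, NK cell and dendritic cell lists were also highest in floxed sample 3, so the peak is not particular to germinal centre genes. The part of germinal centre or other cells in the Ung and Neil1 values was not tested. The 8-oxoguanine glycosylase gene Ogg1 had -0.07, and Apex1, the endonuclease that cuts at the bare site, -0.16, with its 3 probe sets all lower.

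Nucleotide excision repair had 3 of 5 genes lower, with a median of -0.19. Xpc, which finds the distorted helix, read 5.87, 6.29 and 5.88 in floxed and 5.78, 5.66 and 5.81 in deleted samples. The groups were apart by a narrow gap between floxed sample 1 and deleted sample 3, and floxed sample 2 stood far above the rest. The difference was -0.27 ± 0.13 (SE; interval -0.58 to 0.05; limma adjusted p = 0.405). Leaving out floxed sample 2 brought it to -0.13. Xpa, which verifies the lesion, had the smallest p of the route. It read 6.91, 6.71 and 6.92 in floxed and 6.73, 6.41 and 6.60 in deleted samples, with deleted sample 1 just above floxed sample 2, a difference of -0.27 ± 0.12 (SE; interval -0.54 to 0.00; limma adjusted p = 0.342). With all Xpa probe sets averaged it was -0.11.

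Ercc1, a subunit of the nuclease that cuts on the 5′ side, had -0.19, with 2 probe sets lower and 2 higher. The helicases of the transcription factor TFIIH, Ercc2 and Ercc3, had 0.11 and 0.05 with intervals from -0.10 to 0.32 and -0.14 to 0.25. With all probe sets averaged the median of the 5 genes was -0.085 in place of -0.19.

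**Figure D5:**
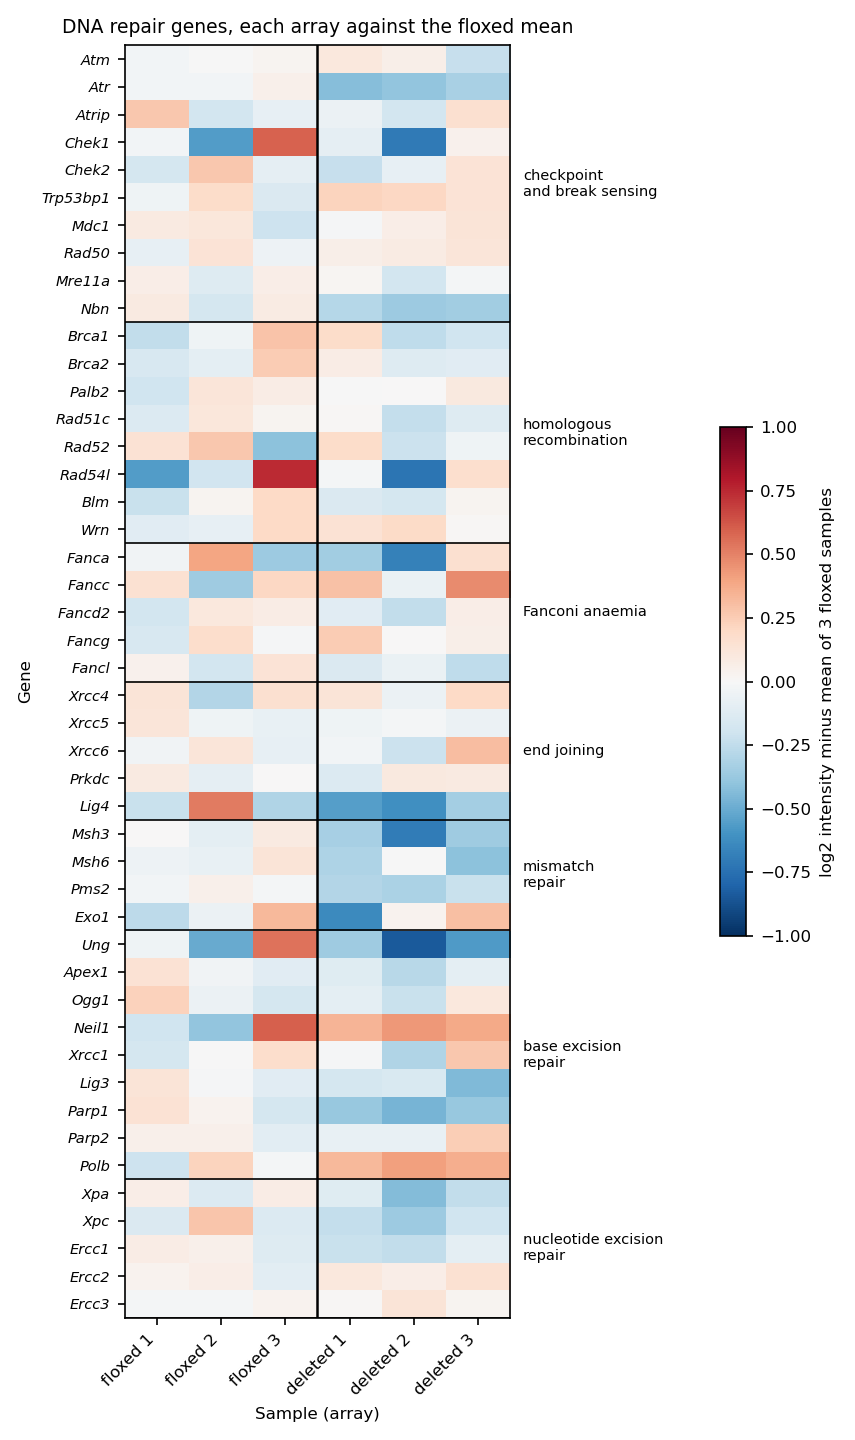
Log2 intensity of each of the 46 repair genes (rows, by pathway) in each sample (columns) minus the mean of the 3 floxed samples, blue for lower and red for higher. Atr, Nbn, Msh3, Pms2 and Parp1 are blue in all 3 deleted samples, Polb and Neil1 are red there, and Chek1, Rad54l, Ung and Neil1 are reddest in floxed sample 3.

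The rest of each pathway, 88 further repair genes of which 76 were measured, was read in the same way. limma called 0 of the 76. An unadjusted p under 0.05 with a lower mean was found for 8 (10.5%, against 6.84% of all genes and 10.2% of those above the median level), and with a higher mean for 1 (1.32%, against 7.96% and 10.3%). Lower deleted means were found for 49 (64.5%, against 46.6% of all genes), with a median difference of -0.08. The replication factor C subunit Rfc3 had the smallest p, at -0.48 ± 0.10 (SE; limma adjusted p = 0.078). It read 6.31, 6.52 and 6.49 in floxed and 6.01, 6.0 and 5.88 in deleted samples, with a clear gap. Rfc3 is one of 8 further genes of mismatch repair and its replication partners, all 8 negative with a median of -0.18. In base excision repair the flap nuclease Fen1 had -0.46, in end joining the end-cleaning enzyme Aptx had -0.35, and in nucleotide excision repair the TFIIH subunit Gtf2h1 had -0.32 while Ercc8, of the branch for transcribed genes, had 0.25.

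The genes that work beside ATR differed in sign. The activator Etaa1 had a difference of -0.50 and the single-strand binding subunit Rpa2 one of -0.39, both with the deleted samples wholly lower (limma adjusted p = 0.178 and 0.135). Of the other subunits of that binding complex, Rpa1 had -0.29 with overlapping groups and Rpa3 had 0.23 with the deleted samples wholly higher. The activator Topbp1 had -0.25, the checkpoint clamp genes Rad9a, Hus1 and Rad1 had -0.19, -0.13 and 0.22, the clamp loader Rad17 -0.09 and the adaptor Clspn -0.04, all with overlapping groups. In homologous recombination the nuclease Mus81 had -0.37 and Rmi2, a partner of BLM, -0.39. The largest differences of the 76 were thus on the lower side, -0.50 against 0.25 for the highest.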

How the data were processed

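Each of 6 mice gave 1 Affymetrix array. The authors deposited linear-scale intensity values for every probe set. RMA, a background correction with quantile normalization, is the tool listed per the submitters' processing notes (version not given in the sources used here). Intensities were log2-transformed with no further normalization. Of 45101 probe sets 34958 had 1 gene symbol in the platform annotation, 932 had several and 9211 none, and 64 control probe sets were left out. Each of 18193 genes was represented by its single-symbol probe set with the highest mean over the 6 samples. Groups were compared gene by gene with limma 3.58.1 in R 4.3.3 (lmFit, eBayes, two-sided, no covariates), adjusting by Benjamini-Hochberg over all genes (threshold 0.05). The fit was tested on simulated data. A permutation of 3 against 3 samples cannot give a p under 0.1, so none was made. The number of arrays limits the precision.

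The repair genes, their pathways and the other lists were chosen with earlier results of these data known. All members are named; full values are given for members with an unadjusted p under 0.05 or groups apart and for the smallest p of each pathway (12 genes), and Neil1, Ung and single values of others were added after their values were seen. Further repair genes are named at an unadjusted p under 0.05. The other genes beside ATR, Cd79a, Cdt1 and Ermap were added after their values were seen. Unadjusted p-values are given as counts. The design text speaks of 3 mice per strain, so each sample was taken as 1 mouse. Alternatives were another normalization, filter, probe set choice, added intensity, variance model, array weights, replicate block, sex term and threshold, and leaving out each sample. Promoter words were searched in Python 3.11.15 on both strands.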

Additional observations from a re-analysis of the deposited data

How the results depend on the processing

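Over 12 kinds of alternative, none of the values of the 13 genes described in full changed sign, and 3 of 221 moved past the threshold: Atr with 16 added to each intensity (adjusted p = 0.049) and with a threshold of 0.1 (adjusted p = 0.099), and Neil1 without floxed sample 3. So 1 repair gene was called in each of these settings, and 0 to 1 with samples left out in turn, and 1 further repair gene was called at a threshold of 0.1. The count over all genes, 142, became 222 with trend and robust empirical Bayes, 291 with array weights, 37 with sex as a term, 449 at a threshold of 0.1, and 0 to 226 with samples left out in turn. The 0 came without floxed sample 1, where limma had 1990 genes at an unadjusted p under 0.05. Replicate numbers were not taken as pairs, since deviations of same-numbered samples correlated at 0.03, 0.10 and 0.0059. With a replicate block 126 genes and 0 repair genes were called, and no call of a repair gene changed. The median of all 46 members ran from -0.12 to -0.02, and that of mismatch repair from -0.30 to -0.22. With probe sets averaged the Fanconi median was -0.0046 and that of nucleotide excision repair -0.085. The medians of recombination, end joining and base excision repair had either sign among the alternatives.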
